A study of Homo sapiens with 20 samples.

Results

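Metallothioneins are small cysteine-rich proteins that bind zinc and copper in the cytoplasm and nucleus. The 6 human metallothionein genes MT2A, MT1X, MT1E, MT1F, MT1G and MT1M were taken by gene symbol, as a family picked with earlier results of these data known, and all 6 were found among the 57820 genes of the count files. They were followed in T47D, an established human line of luminal breast cancer cells with oestrogen and progesterone receptors. The siRNAs were a control (si-control) and ones that target BRG1 (encoded by SMARCA4, the motor subunit of the SWI/SNF chromatin remodeller), CBX3 (the heterochromatin protein HP1 gamma) or FOXA1 (a pioneer transcription factor). Each siRNA was sequenced before hormone (0 h) and after 6 h of R5020, a synthetic progestin, with 2 libraries in each of the 8 groups. Per the labels, all groups grew in medium with charcoal-treated serum and then spent a night without serum, and R5020 was given at 10 nM; the first si-CBX3 library at 0 h carries no protocol. Cells without siRNA gave 1 RNA-seq library at each of 0 h and 6 h, and 1 list of BRG1 ChIP-seq peaks at each of 0 and 30 min. No library is labelled as 6 h without hormone, so changes with hormone and changes with time cannot be told apart. Whether the 2 replicates of a group were grown separately is not in the labels, and the p-values speak only of the spread between these libraries.

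The human metallothionein genes lie in a cluster on chromosome 16. They are switched on by the zinc sensor MTF1, which binds metal response elements in their promoters when free zinc rises, and several are also known targets of steroid hormones and of oxidative stress. MT2A is the most widely expressed member, MT1 genes are expressed more selectively, MT3 is best known from brain, and MT4 from stratified squamous epithelium. Because the coding sequences are close copies of each other, reads that fit more than 1 gene can be lost or misplaced, so levels of single MT1 genes are uncertain.

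The upstream sequences show how the same motif recurs across the family. RefSeq promoters (build GRCh38.p14) were at hand for 2 of the 6 genes, MT2A and MT1X, and for MT1H, MT1B and MT4. The 250 bases before the annotated start are printed for the members MT2A (chr16:56608334-56608583, plus strand) and MT1X (chr16:56682220-56682469, plus strand), and for MT1H (chr16:56669564-56669813, plus strand) as a copy that was almost unread here. Capitals mark matches to the core of the metal response element, searched as TGCACNC and TGCGCNC on both strands.
MT2A: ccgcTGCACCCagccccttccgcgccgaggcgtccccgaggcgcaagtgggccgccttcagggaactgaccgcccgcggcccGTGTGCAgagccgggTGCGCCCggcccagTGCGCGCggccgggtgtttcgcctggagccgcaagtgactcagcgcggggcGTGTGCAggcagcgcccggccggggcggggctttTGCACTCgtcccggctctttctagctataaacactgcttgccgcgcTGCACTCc
MT1X: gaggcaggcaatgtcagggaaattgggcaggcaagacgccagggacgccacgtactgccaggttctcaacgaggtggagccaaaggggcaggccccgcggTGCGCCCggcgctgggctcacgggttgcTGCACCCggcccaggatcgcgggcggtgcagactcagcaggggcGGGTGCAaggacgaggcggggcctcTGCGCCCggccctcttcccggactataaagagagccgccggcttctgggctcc
MT1H: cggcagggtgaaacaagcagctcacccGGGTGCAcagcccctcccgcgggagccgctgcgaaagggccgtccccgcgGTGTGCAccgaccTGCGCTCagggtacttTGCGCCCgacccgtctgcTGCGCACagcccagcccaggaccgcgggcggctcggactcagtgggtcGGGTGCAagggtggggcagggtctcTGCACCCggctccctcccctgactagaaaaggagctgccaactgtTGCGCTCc
The window of MT2A held 7 such matches, that of MT1X 4, and that of MT1H 8, none overlapping another. Of 35116 promoter windows of the same length, 24.8% held at least 1 match, 0.370% held at least 4 and 0.0313% held at least the 7 of MT2A. MT1B and MT4 held 3 each. A TATA box, searched as TATAAA, lay between bases -29 and -24 of MT2A and between -30 and -25 of MT1X. It was in 10.7% of all windows and was not found in that of MT1H.

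**Figure D1:**
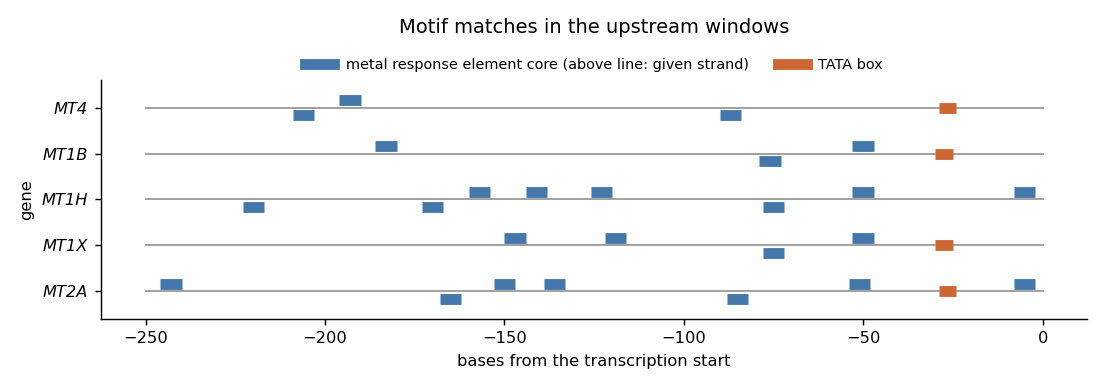
Matches to the metal response element core (blue; above the line on the given strand, below it on the other) and the TATA box (orange) in the 250 bases before the start of 5 metallothionein genes, plotted as bases from the start. MT2A has 7 blue matches, MT1X 4, MT1H 8, and MT1B and MT4 have 3 each.

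The steroid receptor and forkhead motifs searched for were not found in these windows. The steroid receptor palindrome (inverted repeats with 3 free bases between them), its single arm TGTTCT and the forkhead cores TGTTTAC and TGTTTGC had 0 matches on either strand in all 5 metallothionein windows. In all windows of that length their shares were 0.327%, 12.4% and 6.09%. Looser forms of these motifs and sequence further upstream were not searched.

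Library totals ran from 50017255 to 74374857 fragments, so a count of 0 allows a level of up to 0.0403 to 0.0600 CPM (counts scaled to the library total) in a library (3 counts, for counting error only). Each siRNA target was lower in every library of its own siRNA than in every other library: its highest level there was 9.56% of the lowest level elsewhere for SMARCA4, 2.81% for CBX3 and 39.8% for FOXA1. SMARCA4 was not even across the other siRNAs. At 0 h it averaged 71.1 CPM in si-control, 179.8 in si-CBX3 and 184.9 in si-FOXA1, and at 6 h 62.4, 119.1 and 150.2. The cause of this difference was not tested. Luminal markers were expressed in every library, with EPCAM at 127.6 to 222.8 CPM, while the leukocyte marker PTPRC stayed at or below 0.0448 CPM. Of the mesenchymal markers, COL1A1, a fibroblast collagen gene, was read at 21.4 to 58.3 CPM and LUM at 0.332 to 2.67. COL1A2, COL3A1 and PDGFRB stayed at or below 0.209, 0.132 and 0.190 CPM. Per the file headers, the si-control and si-BRG1 files were counted with 8 computing threads and the si-CBX3 and si-FOXA1 files with 1. All headers gave the same tool version, strandedness and gene models. The thread setting does not show whether the files were handled as separate batches. If they were, batch and siRNA cannot be told apart for si-CBX3 or si-FOXA1 against si-control. In bulk RNA, fewer cells of a type and less RNA per cell cannot be told apart either.

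MT2A carried most of the family's RNA. MT2A (ENSG00000125148.6, hg19 chromosome 16, 56642111 to 56643409, plus strand) had 14541 fragments over the 16 siRNA libraries, between 375 and 1504 in each. It held 77.1% to 84.3% of all metallothionein fragments of a library. MT1X (ENSG00000187193.8, 56716336 to 56718108, plus strand) followed with 1715 fragments and 4.81% to 15.1%, and MT1F (ENSG00000198417.5, 56691606 to 56694610, plus strand) with 1527 and 3.19% to 12.7%. Per length of annotated exon (RPKM, reads scaled by exon length and library size), the median level over the libraries was 12.2 for MT2A, 0.954 for MT1F and 0.761 for MT1X, so MT1F ranked above MT1X per length. These lengths merge the exons of all transcript models of a gene.

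The other 3 genes were at or near 0. MT1E (ENSG00000169715.10, 56659387 to 56661024, plus strand) and MT1G (ENSG00000125144.9, 56700643 to 56701977, minus strand) had 0 fragments in all 16 libraries. MT1M (ENSG00000205364.3, 56666145 to 56667898, plus strand) had 70 in all and was above 0 in 14 libraries. Its counts were 5 and 5 in si-control at 0 h and 13 and 8 at 6 h. They were 7 and 5 in si-BRG1 at 0 h and 3 and 6 at 6 h. In si-CBX3 they were 5 and 0 at 0 h and 5 and 2 at 6 h, and in si-FOXA1 0 and 3 at 0 h and 1 and 2 at 6 h. The highest MT1M counts were thus the pair from si-control after hormone, and no si-FOXA1 library was above 3. MT1M did not pass the filter on low counts. Without the filter it was lower in si-FOXA1 than in si-control at 6 h (log2 fold change -2.91, adjusted p = 0.00391), on these few fragments.

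**Figure D2:**
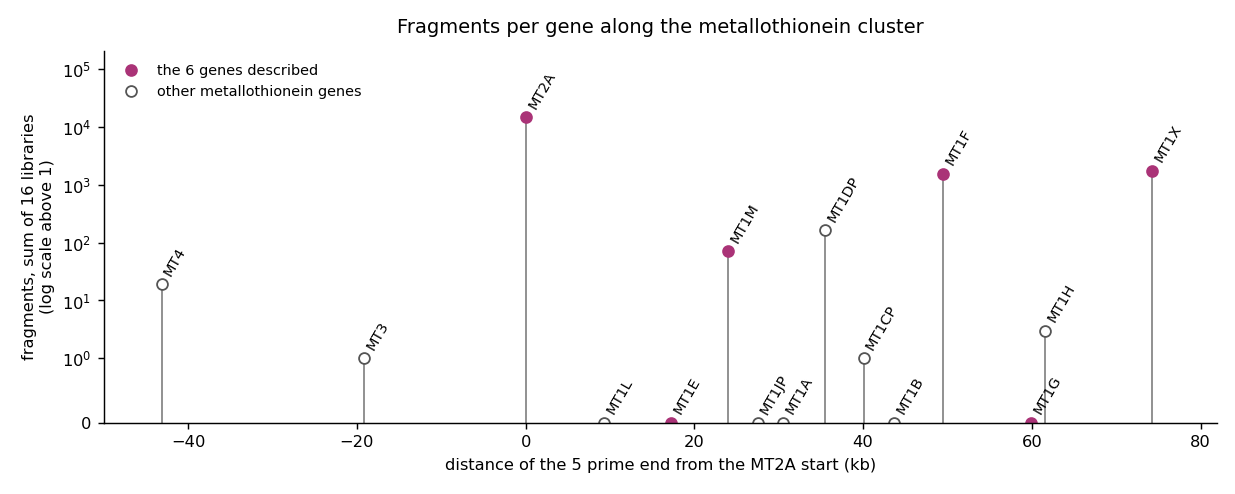
Fragments summed over the 16 siRNA libraries (vertical axis, log scale above 1) for each metallothionein gene, against the distance of its 5 prime end from that of MT2A in kb; filled points are the 6 genes described, open points the other genes. MT2A stands highest at 14541, MT1X and MT1F follow at 1715 and 1527, and MT1E and MT1G lie on 0.

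Genes with and without reads were mixed along the cluster, as the plot of fragments by distance shows. Some genes at 0 lay side by side, as MT1L and MT1E did, and MT1JP and MT1A. From the MT2A start, MT1E began at 17.3 kb, MT1M at 24.0 kb, MT1F at 49.5 kb, MT1G at 59.9 kb and MT1X at 74.2 kb. Of 10 other metallothionein genes and pseudogenes in the files, MT1A, MT1B, MT1L, MT1JP and MT1HL1 were at 0 in all libraries, and MT1H, MT1CP and MT3 had 3, 1 and 1 fragments. The pseudogene MT1DP had 164 fragments, 2 to 23 per library. MT4 had 19, of which 8 and 5 fell in si-FOXA1 at 0 h, 3 and 2 in si-FOXA1 at 6 h and 1 in si-control at 0 h.

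The si-FOXA1 groups had the lowest means of all 3 readily measured genes, although for MT1X their libraries overlapped those of si-CBX3. MT1F was at 1.66 and 2.19 CPM in the si-control libraries at 0 h and at 0.375 and 0.487 in si-FOXA1. After hormone it was at 2.30 and 2.10 in si-control and at 0.267 and 0.382 in si-FOXA1. Neither pair overlapped the other, and all 4 si-FOXA1 libraries lay below all 12 others. MT1F was 4.45-fold lower at 0 h (log2 fold change -2.15, SE 0.22, adjusted p = 1.53e-07) and 6.72-fold lower at 6 h (-2.75, SE 0.24, adjusted p = 1.75e-08). MT2A, the member with the most fragments, went from 19.8 and 18.4 CPM in si-control to 7.56 and 7.72 in si-FOXA1 at 0 h, and from 25.7 and 20.7 to 6.68 and 7.53 at 6 h. It was 2.50-fold lower at 0 h (-1.32, SE 0.11, adjusted p = 1.80e-08) and 3.26-fold lower at 6 h (-1.71, SE 0.12, adjusted p = 9.01e-10). The si-FOXA1 libraries were below every other library for MT2A as well.

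MT1X fell too, from 3.29 and 2.77 CPM in si-control to 0.909 and 1.10 in si-FOXA1 at 0 h and from 4.40 and 2.52 to 1.27 and 0.964 at 6 h. The log2 fold changes were -1.60 (SE 0.25, adjusted p = 2.00e-05) and -1.64 (SE 0.25, adjusted p = 1.56e-05). All 3 tested genes were thus lower at both times, against 33.5% of the 18806 tested genes at 0 h and 34.5% at 6 h that were called lower. Their median log2 fold change was -1.60 at 0 h and -1.71 at 6 h. The median over all tested genes was 0.11 and 0.12, and 0.07 and 0.09 with DESeq2 size factors, so the falls stand slightly larger relative to the typical gene.

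**Figure D3:**
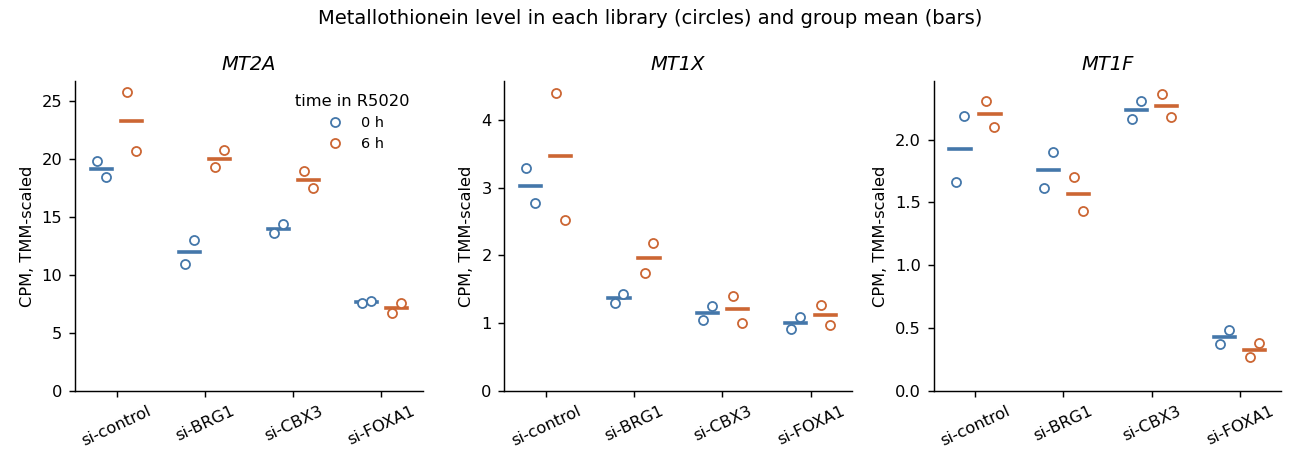
Level of MT2A, MT1X and MT1F in CPM (vertical axes, each from 0) in each of the 2 libraries per group (circles) with the group mean (bars), by siRNA, at 0 h (blue) and 6 h (orange) of R5020. For MT2A and MT1F the 4 si-FOXA1 libraries lie lowest, while for MT1X the si-control libraries stand above all knockdown libraries.

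Against si-CBX3, whose files were counted with the same thread setting as those of si-FOXA1, the 3 genes parted. MT1F was lower in si-FOXA1 by -2.37 at 0 h (SE 0.21, adjusted p = 5.34e-08) and -2.79 at 6 h (SE 0.24, adjusted p = 2.15e-08), on the log2 scale. MT2A was at -0.87 (SE 0.11, adjusted p = 4.34e-06) and -1.35 (SE 0.12, adjusted p = 2.25e-08). MT1X was not called at either time, at -0.19 (95% interval -0.77 to 0.38) and -0.11 (-0.71 to 0.50). So 2 of 3 were lower at each time, where 30.6% and 33.7% of all tested genes were called lower. The pseudogene MT1DP was also lower, at -1.52 (adjusted p = 0.0179) and -1.70 (adjusted p = 0.0270), on 2 to 23 fragments per library. Against si-control MT1DP was not called, at -0.93 (adjusted p = 0.151) and -1.005 (adjusted p = 0.206). The make-up of the family moved with this: per 100 MT2A fragments, a si-FOXA1 library held 4.0 to 6.3 MT1F fragments, a si-control library 8.4 to 11.9 and a si-CBX3 library 12.5 to 16.1. A si-BRG1 library held 14.7 to 14.8 at 0 h and 6.9 to 8.8 at 6 h.

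In si-CBX3, MT1X and MT2A were lower than in si-control, while MT1F was not called. MT1X stood at 1.04 and 1.25 CPM in si-CBX3 at 0 h and at 1.40 and 1.00 at 6 h, in each case below both si-control libraries. The log2 fold changes against si-control were -1.40 (SE 0.24, adjusted p = 0.000117) and -1.53 (SE 0.25, adjusted p = 9.30e-05), a 2.65-fold and a 2.89-fold lower level. MT2A was at 13.5 and 14.3 CPM at 0 h and 18.9 and 17.5 at 6 h. That was -0.45 (SE 0.11, adjusted p = 0.00201) and -0.35 (SE 0.11, adjusted p = 0.0131) on the log2 scale, with no overlap between groups. The MT2A call at 6 h was lost without si-control replicate 1 (-0.19, adjusted p = 0.231) and without si-CBX3 replicate 2 (-0.30, adjusted p = 0.109). MT1F was at 2.17 and 2.31 CPM at 0 h and 2.36 and 2.18 at 6 h, differing from si-control by 0.22 (95% interval -0.15 to 0.59) and 0.04 (-0.34 to 0.42). Of the 3 tested genes 2 were lower at each time, beside 26% of all tested genes at 0 h and 24.4% at 6 h. The members' median was -0.45 and -0.35, and that of all tested genes 0.05 and 0.02.

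BRG1 knockdown lowered MT2A and MT1X before hormone. MT2A was at 10.9 and 12.9 CPM in si-BRG1 at 0 h, clear of the 19.8 and 18.4 of si-control (-0.68, SE 0.11, adjusted p = 0.000237). MT1X was at 1.30 and 1.43 against 3.29 and 2.77 (-1.15, SE 0.24, adjusted p = 0.00171). MT1F, at 1.61 and 1.90 against 1.66 and 2.19, overlapped si-control and was not called (-0.13, 95% interval -0.51 to 0.25). Thus 2 of 3 were lower at 0 h, where 13.4% of all tested genes were called lower, and the members' median was -0.68 beside 0.03 for all tested genes.

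After hormone the difference between si-BRG1 and si-control was less firm. MT2A reached 19.3 and 20.7 CPM, the higher of which passed the lower si-control library at 20.67, and it was not called (-0.21, SE 0.11, adjusted p = 0.132). MT1X was at 1.74 and 2.17 CPM (-0.81, SE 0.23, adjusted p = 0.0101), and MT1F at 1.70 and 1.43 (-0.50, SE 0.18, adjusted p = 0.0408). So 2 of 3 were lower, where 17.8% of all tested genes were called lower. Each of these calls was lost when a single library was left out. Without si-control replicate 1 at 6 h, MT1X was at -0.36 (adjusted p = 0.273) and MT1F at -0.43 (adjusted p = 0.175). Without si-BRG1 replicate 2 at 6 h MT1F was at -0.37 (adjusted p = 0.228), and without si-control replicate 2 at 6 h MT1F was at -0.56 (adjusted p = 0.0791) and MT2A became called lower (-0.36, adjusted p = 0.0317). With the 4 libraries of this comparison alone, neither gene was called.

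**Figure D4:**
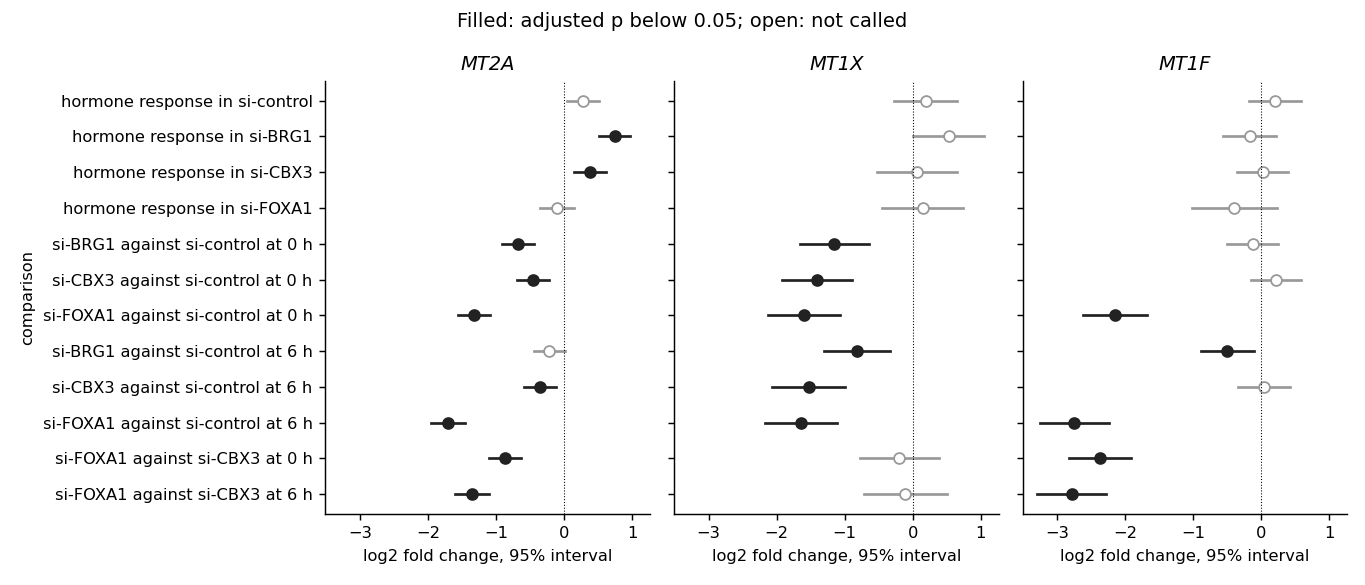
Log2 fold changes (horizontal axes) with 95% intervals for MT2A, MT1X and MT1F in 12 comparisons (rows); filled points have an adjusted p below 0.05, open points do not. MT1X is called lower in each knockdown against si-control but not in si-FOXA1 against si-CBX3, where MT2A and MT1F are.

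In order of mean level, MT1X was highest in si-control at 6 h and 0 h, which overlapped each other, then si-BRG1 at 6 h, clear of its neighbours. The remaining 5 groups, from si-BRG1 at 0 h (1.36 CPM) down to si-FOXA1 at 0 h (1.00 CPM), each overlapped the next. For MT2A, si-control and si-BRG1 at 6 h, si-control at 0 h and si-CBX3 at 6 h overlapped in a chain. Below them si-CBX3 and si-BRG1 at 0 h and si-FOXA1 at both times followed without overlap, although si-FOXA1 at 0 h (from 7.56 CPM) and at 6 h (up to 7.53 CPM) almost touched. For MT1F the only gap lay between si-FOXA1 and the rest. Over the 16 libraries Pearson's r of log2 CPM was 0.74 between MT2A and MT1X, 0.87 between MT2A and MT1F and 0.47 between MT1X and MT1F. Spearman's rho for the same pairs was 0.78, 0.57 and 0.35, so the order of the pairs with MT2A turned with the measure. These describe libraries that fall into 8 groups and share their siRNA.

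Genes of the interferon response were lower under the knockdowns as well. Against si-control, MT1X too was called lower under each knockdown at both times. MT2A was not called in si-BRG1 at 6 h, and MT1F was not called in si-BRG1 at 0 h or in si-CBX3 at either time. All 9 listed genes (IFIT1, IFIT2, IFIT3, ISG15, IFI6, IFI27, MX1, OAS1 and IFITM1) were lower than in si-control under each of the 3 knockdowns at both times, with medians of -2.13, -2.10 and -4.44 at 0 h and -2.61, -1.80 and -4.38 at 6 h in si-BRG1, si-CBX3 and si-FOXA1. Of all tested genes 13.4%, 26% and 33.5% were called lower at 0 h and 17.8%, 24.4% and 34.5% at 6 h, in the same order. The antiviral effector gene IFIT1 was at -5.28 in si-FOXA1 at 0 h. Summed over the 9 genes, the level was 1313 to 3073 CPM in si-control, 279.4 to 554.6 in si-BRG1, 484.8 to 733.6 in si-CBX3 and 79.4 to 145.1 in si-FOXA1, with no gene at 0 in any library. The si-control libraries differed among themselves, at 3073 and 1313 CPM at 0 h and 1787 and 1669 at 6 h. Whether this bears on the metallothionein genes was not tested. The 3 knockdowns share the si-control libraries, so their differences from si-control are not independent of each other.

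MT2A was higher at 6 h of R5020 than at 0 h in the si-BRG1 and si-CBX3 cells. In si-BRG1, MT2A went from 10.9 and 12.9 CPM to 19.3 and 20.7, a 1.67-fold rise (log2 fold change 0.74, SE 0.11, adjusted p = 3.89e-05). It was the only one of 3 tested genes called, where 18.6% of all tested genes were called higher. In si-CBX3 it went from 13.5 and 14.3 to 18.9 and 17.5, a 1.30-fold rise (0.38, SE 0.11, adjusted p = 0.0101), again 1 of 3 beside 20.4% of all tested genes. In both the 2 libraries at 6 h lay above the 2 at 0 h. The si-CBX3 call was lost without replicate 1 at 0 h (0.34, adjusted p = 0.0744) or replicate 1 at 6 h (0.35, adjusted p = 0.0666).

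In si-control and si-FOXA1 none of the 3 tested genes was called by edgeR or by DESeq2. In si-control, where 37.6% of all tested genes were called in either direction, MT2A went from 19.8 and 18.4 CPM to 25.7 and 20.7 (0.28, 95% interval 0.05 to 0.51, adjusted p = 0.0512), and 1 of 3 had an unadjusted p below 0.05. Both libraries at 6 h lay above both at 0 h, and the value ran from 0.11 without si-control replicate 1 at 6 h (adjusted p = 0.510) to 0.43 without si-control replicate 2 at 6 h (adjusted p = 0.0121). In si-FOXA1, where 38.8% of all tested genes were called, MT2A went from 7.56 and 7.72 to 6.68 and 7.53 (-0.10, 95% interval -0.35 to 0.15), and 0 of 3 had an unadjusted p below 0.05. Here both libraries at 6 h lay below both at 0 h.

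MT1X and MT1F gave no called response under any siRNA. For MT1X the log2 fold changes were 0.19 in si-control, 0.53 in si-BRG1 (95% interval 0.01 to 1.05, adjusted p = 0.110), 0.06 in si-CBX3 and 0.15 in si-FOXA1. MT1X in si-BRG1 was called without the filter on low counts (0.55, adjusted p = 0.0260). For MT1F they were 0.20, -0.17, 0.02 and -0.40 in the same order, the last with a 95% interval of -1.03 to 0.24. The members' medians were 0.20, 0.53, 0.06 and -0.10, beside -0.02, -0.03, -0.02 and -0.04 for all tested genes.

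Differences between hormone responses were tested directly. Against si-control, 0 of 3 genes were called in si-BRG1, si-CBX3 or si-FOXA1 by edgeR or by DESeq2, where 5.22%, 8.99% and 28.7% of all tested genes were, and at an unadjusted p below 0.05 the counts were 1, 0 and 1. The 2 were MT2A, whose response differed by 0.46 in si-BRG1 (SE 0.15, adjusted p = 0.0922) and by -0.38 in si-FOXA1 (SE 0.16, adjusted p = 0.0857). The si-BRG1 difference was called without si-control replicate 1 at 6 h (0.63, adjusted p = 0.0404), without si-BRG1 replicate 1 at 6 h (0.51, adjusted p = 0.0407) and without the filter on low counts (0.49, adjusted p = 0.0422). The si-FOXA1 difference was called without si-control replicate 2 at 6 h (-0.53, adjusted p = 0.0262). In comparisons added after the values were seen, the MT2A response in si-FOXA1 was below that in si-BRG1 by -0.85 (SE 0.16, adjusted p = 0.00130), where 9.27% of all tested genes were called lower, and below that in si-CBX3 by -0.49 (SE 0.16, adjusted p = 0.0341), where 14.7% were.

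Reference targets of steroid receptors rose in all 4 siRNA groups. All 7 of FKBP5, TSC22D3, SGK1, DUSP1, PER1, KLF9 and ZBTB16 rose in si-control and si-BRG1 (medians 3.16 and 3.20), and 6 of 7 in si-CBX3 and si-FOXA1 (1.83 and 1.84). Of all tested genes 19.5% in si-control, 18.6% in si-BRG1, 20.4% in si-CBX3 and 19.1% in si-FOXA1 were called higher. FKBP5, a co-chaperone of steroid receptors, rose by 3.82 in si-control and by 3.06 in si-FOXA1.

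Without siRNA, MT2A and MT1X stood more than 2-fold higher after hormone. With 1 library per time there was no replicate check, and the authors' values are RPKM per transcript, summed here per gene. MT2A went from 8.17 to 22.4 RPKM, and MT1X from 2.67 to 7.95, 2.55-fold and 2.44-fold on the scale of RPKM plus 1. On that scale 8.43% of the 14106 genes with at least 1 RPKM at either time were at least 2-fold higher at 6 h, and the median log2 ratio of those genes was 0.14. MT1F was at 2.42 and 2.73 RPKM, a log2 ratio of 0.13. It turned to -0.27 when transcripts below 1 RPKM at both times were left out. MT1E was at 0.0307 and then listed at 0. MT1G and MT1M were listed at 0 before hormone and stood at 0.0197 and 0.0748 RPKM at 6 h, from an estimated 2.0 and 15.5 reads.

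A single transcript model carried the rise of MT2A. ENST00000563985.1 went from 1.55 to 13.9 RPKM, or 252.8 to 2386 estimated reads, and made up 86.5% of the gene's gain. The other 4 models together went from 6.62 to 8.53 RPKM. These models overlap almost fully between 56642111 and 56643409, so the estimate divides reads that several models can share. For MT1X, 78.7% of the gain fell on ENST00000394485.4, which went from 1.81 to 5.96 RPKM.

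**Figure D5:**
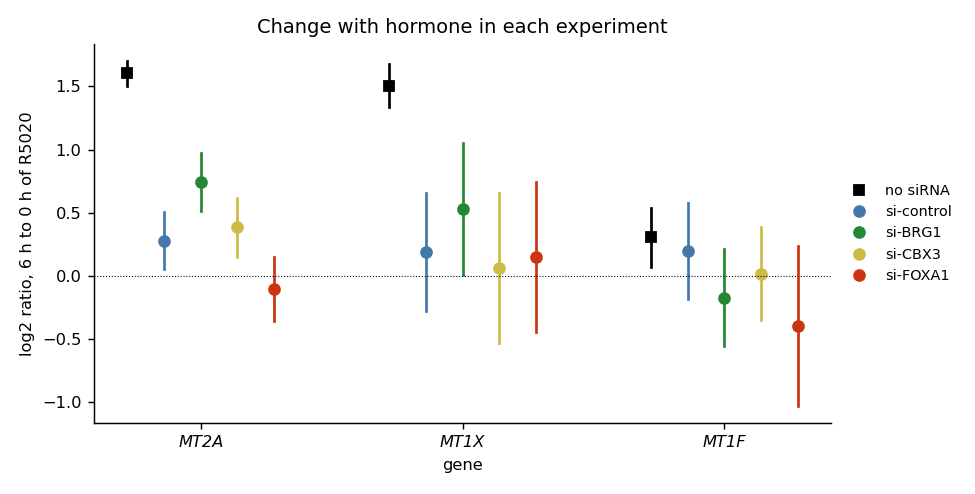
Log2 ratio of 6 h to 0 h of R5020 for MT2A, MT1X and MT1F without siRNA (black squares, estimated reads scaled to the library total, 1 library per time, bars are 95% Wilson intervals for counting error only) and under each siRNA (circles, edgeR log2 fold changes with 95% intervals, 2 libraries per group). The squares of MT2A (1.60) and MT1X (1.51) lie above all siRNA points of the same gene, while that of MT1F (0.31) lies within the intervals of si-control and si-CBX3.

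Set on reads, the MT2A ratio without siRNA was 3.04-fold and that of MT1X 2.84-fold, whereas under si-control the fitted rises were 1.21-fold and 1.14-fold with no call. The libraries without siRNA were quantified per transcript in another way than the siRNA libraries. The difference between these experiments was not tested. MT2A, MT1X and MT1F were the 3 members above 1 RPKM without siRNA, and they were also the 3 that passed the filter in the siRNA libraries.

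No BRG1 peak lay at the metallothionein genes. The authors' lists hold 2288 peaks at 0 min and 6180 at 30 min, each from 1 library, and 0 of them fell in the 76.0 kb from the start of MT2A to the end of MT1X (hg19 chromosome 16, 56642111 to 56718108). Within 5 kb of a 5 prime end, 0 of 6 members had a peak at either time, where 1.89% of the tested genes had one at 0 min and 10.3% at 30 min. With shares this low, 0 of 6 says little about these genes in particular. All of chromosome 16 held 14 peaks at 0 min and 132 at 30 min. A list holds only what the caller kept, so weaker binding is not measured.

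Genes of zinc and copper handling gave a mixed picture beside the metallothioneins. MTF1, the zinc sensor that drives metallothionein promoters, rose with hormone under every siRNA, by 0.56 in si-control, 0.49 in si-BRG1, 1.12 in si-CBX3 and 0.48 in si-FOXA1 (adjusted p between 1.61e-09 and 6.71e-05). It was lower in si-FOXA1 than in si-control at both times (-0.68 and -0.76). Of 8 tested genes for zinc sensing and export, 2, 2, 4 and 3 rose with hormone under si-control and the siRNAs for BRG1, CBX3 and FOXA1, and 0 fell. Of all tested genes 19.5%, 18.6%, 20.4% and 19.1% were called higher and 18.1%, 17.1%, 20.5% and 19.6% lower in the same order, so 2 of 8 is near the general share. The vesicle zinc exporter gene SLC30A3 was among the genes that rose in each. SLC30A1, the plasma membrane exporter that is another classic MTF1 target, was named after its values were seen. It gave no called hormone response, at 0.11, 0.21, -0.34 and 0.03.

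Among 12 tested zinc importer genes, SLC39A14 rose under every siRNA, by 1.43, 1.40, 1.47 and 0.60, while the list as a whole had 3, 1, 2 and 1 higher and 2, 1, 0 and 3 lower. In si-control and si-FOXA1 these counts are near the 37.6% and 38.8% of all tested genes called in either direction. Of 8 copper genes 4, 3, 4 and 4 rose and 1, 0, 0 and 1 fell, beside the shares of all genes given above. SLC31A2, a relative of the copper importer SLC31A1, was among those that rose (1.16 in si-control). ATP7B, a copper-exporting ATPase, was at -2.06 against si-control in si-FOXA1 at 0 h and was among 7 of 8 copper genes called lower there, where 33.5% of all tested genes were. Of 11 targets and regulators of the oxidative stress factor NRF2, 4, 4, 7 and 7 rose with hormone and 2, 3, 1 and 1 fell, beside 18.6% (si-BRG1) to 20.4% (si-CBX3) of all tested genes called higher and 17.1% (si-BRG1) to 20.5% (si-CBX3) called lower. GCLC, a subunit of the enzyme for glutathione synthesis, rose in all 4 (0.67 in si-control). In si-FOXA1 at 0 h 2 of these 11 were higher and 6 lower than in si-control, where 40% and 33.5% of all tested genes were.

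Genes that flank the cluster were called in both directions. Of 8 tested genes flanking it on chromosome 16, 2 were higher and 3 lower in si-FOXA1 than in si-control at both 0 h and 6 h. Of all tested genes 40% and 40.1% were called higher and 33.5% and 34.5% lower, so the count of lower neighbours is near the general share. CPNE2, a copine gene, was higher at both (1.82 and 1.45) and HERPUD1, a gene of the endoplasmic reticulum stress response, was lower (-0.71 and -1.04). In si-BRG1 at 0 h 1 was higher and 1 lower, beside 15.1% and 13.4% of all tested genes. In si-CBX3 at 0 h 2 were higher and 3 lower, beside 28.1% and 26%, and NUP93, a nuclear pore gene, was among the latter (-0.67). With hormone, CPNE2 rose under every siRNA, by 1.46 in si-control.

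By Pearson's r of log2 CPM over the 16 libraries, among 12010 other genes with a mean log2 CPM of at least 1, the genes most like MT2A were PSMD5 (0.976), PSMB2 (0.972) and STIM1 (0.969). Those most like MT1X were PNPT1 (0.940), CDK5RAP1 (0.921) and PHF11 (0.919). Those most like MT1F were SIL1 (0.989), CYB561 (0.987) and RAB1B (0.987). The 3 sets held no gene in common. They are the highest of many correlations, over libraries that share siRNA groups, and carry no test.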

How the data were processed

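RNA-seq counts of fragments per gene were deposited by the authors without normalization for 16 siRNA libraries. The counting tool, per the file headers, was featureCounts 1.4.6-p2 in reverse-stranded fragment mode with GENCODE 19 models of hg19, and with no option that counts multiply mapped reads. For the 2 libraries without siRNA the authors deposited estimated reads and RPKM per transcript, made with an unstated tool. The scores of the BRG1 peaks are as the authors deposited them, on a scale that no label or header explains.

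The members and gene lists were chosen with earlier results of these data known. Some listed genes are not reported here. Genes passing filterByExpr (18806, including MT2A, MT1X and MT1F) were fitted in edgeR 4.0.16 (R 4.3.3) with TMM scaling and a mean per group over all 16 libraries (8 residual degrees of freedom). Quasi-likelihood tests were two-sided, Benjamini-Hochberg adjusted over all genes, and called below 0.05. The code was tested on simulated counts. CPM are TMM-scaled. RPKM ratios use a pseudocount of 1. Peaks were assigned within 5 kb of a 5 prime end. Named genes were the metallothioneins, the siRNA targets, the 3 genes most correlated with each tested member, and up to 3 called genes of lowest p per list and comparison. Alternatives were DESeq2 1.42.0 (test and size factors), no filter, a replicate block, only the groups compared, each library left out, other pseudocounts, transcript filters and units, and other peak windows.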

Additional observations from a re-analysis of the deposited data

Results flagged for a closer look

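The response of MT2A to hormone differed between siRNAs in a direct test of the difference, in 2 comparisons added after the values were seen. Their adjusted p-values do not allow for that choice, and the planned differences of MT2A from si-control were not called. The MT2A response was lower in si-FOXA1 than in si-BRG1 by -0.85 and lower in si-FOXA1 than in si-CBX3 by -0.49, on the log2 scale. The first difference stayed called without any one of its 8 libraries. The second was lost in 6 of 8 such fits: without si-CBX3 replicate 1 or 2 at 0 h, without si-CBX3 replicate 1 at 6 h, without si-FOXA1 replicate 1 or 2 at 0 h and without si-FOXA1 replicate 1 at 6 h, where it ran from -0.40 to -0.53.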

How the results depend on the processing

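No called value changed sign. Of 180 counts of members under an alternative 158 stayed within 1.5 times the reported count. For the 10 called values of the members in si-FOXA1 against si-control or si-CBX3, all 90 alternative values kept their direction and their side of the threshold. For si-BRG1 against si-control at 6 h, where 2 members were called, DESeq2 and the fit without a filter each called 1, and the fit of only the groups compared called 0. Without the filter on low counts 2 members were called in the hormone response of si-BRG1 (1 reported) and 1 in its difference from si-control (0 reported). Without siRNA, 5 of 6 members differed by at least 2-fold with a pseudocount of 0.01 (2 reported), 3 of them on values below 0.1 RPKM. No member had a BRG1 peak under any window or score limit tried (0 each). The minimum overlap of peaks had no value to change.

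With 1 library left out, members called ran from 0 to 2 for si-BRG1 against si-control at 6 h, from 1 to 2 for si-CBX3 against si-control at 6 h, from 0 to 1 for the hormone responses of si-control and si-CBX3, and from 0 to 1 for the differences of hormone response of si-BRG1 or si-FOXA1 from si-control and of si-FOXA1 from si-CBX3. In such fits the group with 1 library is assumed to vary like the others. The sign of 14 log2 fold changes, none of them called as reported or after the change of sign, turned under at least 1 alternative. With 1 library left out, MT1X ran from -0.27 to 0.54 for the hormone response in si-control, from -0.16 to 0.29 in si-CBX3, from -0.054 to 0.34 in si-FOXA1 and from -0.33 to 0.12 for si-FOXA1 against si-CBX3 at 6 h. Its difference of hormone response from si-control ran from -0.0079 to 0.79 in si-BRG1, from -0.47 to 0.33 in si-CBX3 and from -0.39 to 0.42 in si-FOXA1 (0.028 with only the groups compared), and that of si-FOXA1 from si-CBX3 from -0.14 to 0.32. MT1F ran from -0.32 to 0.073 for si-BRG1 against si-control at 0 h, from -0.022 to 0.11 for si-CBX3 against si-control at 6 h and from -0.027 to 0.077 for the hormone response in si-CBX3. Its difference of response ran from -0.36 to 0.0074 for si-CBX3 from si-control and from -0.51 to 0.0022 for si-FOXA1 from si-BRG1. The MT2A difference for si-CBX3 from si-control ran from -0.046 to 0.27. The MT1F ratio without siRNA, which has no test, turned from 0.13 to -0.27 when transcripts under 1 RPKM were left out. Over all genes, the difference of hormone response between si-BRG1 and si-control gave 981 calls, 1544 with DESeq2, 61 with only the groups compared and 147 to 2860 with 1 library left out. That of si-CBX3 gave 1690, and 830 to 2029 with 1 left out. The hormone response in si-BRG1 gave 6706 and 4249 with only the groups compared, si-BRG1 against si-control 7024 and 3742 at 6 h, and 5352 and 3290 at 0 h without si-BRG1 replicate 1. The cause was not tested. The difference between si-FOXA1 and si-BRG1 gave 3235 calls, and 2082 to 5296 with 1 left out, and that between si-FOXA1 and si-CBX3 5233, and 3368 to 5092. Replicate numbers are shared between groups, but the labels do not say that they mark a batch, and the correlation of same-numbered deviations ran from -0.45 to 0.32. A fit with the replicate number as a block changed no count of members called (2 for si-BRG1 against si-control at 6 h, 3 for si-FOXA1 at both times) and gave 747 calls over all genes for the si-BRG1 difference. With 50017255 or more fragments per library, depth limits MT1M, and 2 libraries per group limit the other tested genes. For the genes at 0, depth and reads shared between copies cannot be told apart.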
